A study of Caenorhabditis elegans with 2 samples.

Results

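The C-type lectin genes of Caenorhabditis elegans were examined for binding of the nuclear hormone receptor NHR-90 at their starts. Members were all nuclear protein-coding genes of the Ensembl release 115 annotation of WBcel235 whose symbol begins with clec- followed by a digit, and no measured value entered that choice. There were 240 such genes among 19973, carrying 237 symbols, since 3 symbols are each held by 2 genes. In RefSeq, 207 of the 240 have a product name with a C-type lectin. The other product names were 14 PAN-3 domain proteins, 8 VWFA domain proteins, 5 CW domain proteins, 3 CUB domain proteins, 2 proteins like Deleted in malignant brain tumors 1, and 1 cubilin. The symbol rule also leaves out 24 other genes whose RefSeq product names a C-type lectin.

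C-type lectin domains are protein folds that in vertebrates often bind sugars in a calcium-dependent way. In C. elegans they form a large family, and many members are secreted or predicted to be. Several change their transcript level in the intestine when the animal feeds on pathogenic bacteria, while the ligands of most are unknown. Nuclear hormone receptors such as NHR-90 are transcription factors with a zinc finger DNA-binding domain.

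Binding had been measured by chromatin immunoprecipitation followed by sequencing (ChIP-seq), in which DNA recovered with a protein is sequenced and sites of accumulated reads are listed as peaks. The study has 1 group of 2 biological replicates, per the labels, so it holds no treated and untreated samples to compare. The animals were young adult hermaphrodites of strain OP484, harvested 64 h after synchronization as first-stage larvae starved following bleaching. Their transgene encodes NHR-90 with a tag at its C terminus, described as eGFP in one label and as GFP-FLAG in another, and the labels state neither its promoter nor its copy number. The precipitation used an antibody against GFP according to the sample descriptions, although the antibody field reads nhr-90. Whole animals were used, so strong binding in a few cells and weak binding in many cannot be told apart. The control experiment named in the labels is not analysed here.

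4 peak lists on genome build ce11 were used. The replicate 1 list held 30000 peaks and the replicate 2 list held 26622. The pooled list held 30000 peaks made from both replicates together, and it is titled as peaks and background. The IDR list held 1441 peaks kept by a cutoff on the irreproducible discovery rate, which scores how alike the replicates rank a peak. Each peak has a signal, which is the authors' own value, and a summit, the base the authors gave as its highest point. Signal has its own scale in each list and was used only to rank peaks within a list, with rank 1 the highest. Read numbers are unknown here, so the precision of a single signal cannot be given. A gene was counted when a summit lay from 1000 bp upstream to 500 bp downstream of any of its annotated transcript starts, and its strongest such peak was taken.

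C-type lectin genes had few of the reproducible NHR-90 peaks. Only clec-126, clec-150 and clec-178 had an IDR summit at a start, which is 3 of 240 members or 1.25% (exact 95% binomial interval 0.259 to 3.61%), beside 716 of 19733 other protein-coding genes or 3.63%. In the pooled list 80 members or 33.3% had a summit at a start (27.4 to 39.7%), beside 42.1% of other genes. The lower share was found in each replicate. Replicate 1 had 77 members, 32.1% against 42.4%, and replicate 2 had 73 members, 30.4% against 41.9%. Both replicate lists had a summit for 45 members, 18.8% (14.0 to 24.3%), beside 31.1% of other genes. The intervals cover the counting of genes only. No test of the list was made, because neighbouring members can share a peak and genes are not replicates of the experiment.

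The lists overlapped as follows for the members. A summit in the pooled list and in both replicate lists was found for 42 members, 17.5% against 29.7% of other genes. The pooled list and 1 replicate list had a summit for 34 members, 14.2% against 11.0%, and 4 members had one in the pooled list alone among these 3 lists. 131 members, or 54.6%, had no summit at a start in any list, against 45.4% of other genes. A smaller share of members than of other genes thus had a summit in both replicate lists, which need not be the same peak. Summits in a single replicate list were about as frequent.

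The members that had a pooled summit had it low in the list. Their strongest peak had a median signal of 27.2 (quartiles 20.7 and 33.2, range 15.2 to 358), beside a median of 34.4 (23.8 and 53.4) for the 8302 other genes with a summit. Their median rank was 14457 of 30000 peaks, against 9607.5 for other genes. Other gene lists lay on both sides of the members. Medians were 26.6 for cuticle collagen genes, 24.3 for cytochrome P450 genes, 24.2 for antimicrobial peptide genes and 21.3 for neuropeptide-like antimicrobial peptide genes. They were higher for nuclear hormone receptor genes (34.5), thaumatin-like genes (36.9), infection response genes (40.5) and lysozyme genes (41.8). Saposin-like genes (43.7), immune signalling genes (56.3) and galectin genes (66.6) were higher still. In replicate 1 the medians were 17.3 for members and 21.6 for others, and in replicate 2 they were 14.2 and 17.5. Cumulated from the top, the strongest 5000 pooled peaks reached 9 members, 3.75% against 12.4% of other genes. The strongest 10000 reached 18, 7.5% against 21.6%, and the strongest 20000 reached 55, 22.9% against 33.8%. The gap was therefore present at every depth shown from 1441 peaks on. Below rank 10000, where the list may hold background, 62 of the 80 members entered. Many other genes entered there too, since the strongest 10000 peaks reached 4269 of the 8302 with a pooled summit.

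**Figure D1:**
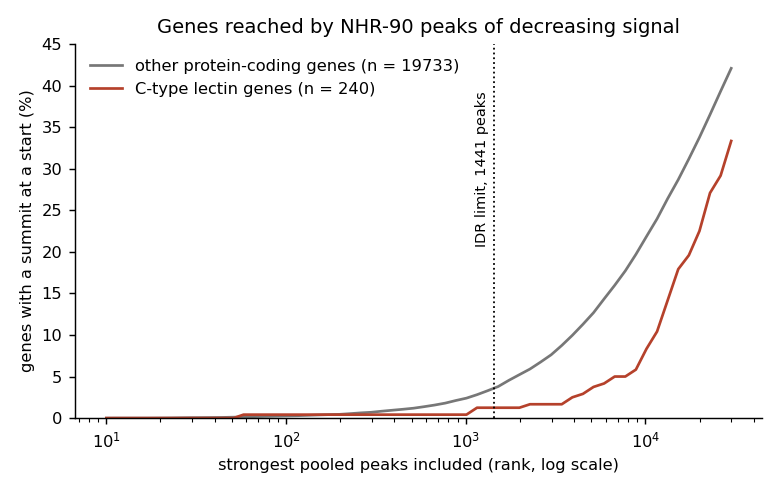
Share of genes with a summit at a start (y axis, percent) as pooled peaks are added from the strongest down (x axis, rank, log scale), for 240 C-type lectin genes and 19733 other protein-coding genes. The members' line lies below that of the other genes at the IDR limit of 1441 peaks and ends at 33.3% against 42.1%.

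The sequences at 5 member peaks are printed because they carry the strongest signals or show what the summits lie in. All are the plus strand of WBcel235, the assembly of ce11 coordinates, 5′ to 3′, from the RefSeq genome, and annotated untranslated bases were left out. Capitals in the first 2 mark the small RNA genes beside the summit, and in the other 3 a match on either strand to one of 5 short motifs described below.
clec-126, chrII:3519043-3519323, around the summit, with 2 tRNA genes: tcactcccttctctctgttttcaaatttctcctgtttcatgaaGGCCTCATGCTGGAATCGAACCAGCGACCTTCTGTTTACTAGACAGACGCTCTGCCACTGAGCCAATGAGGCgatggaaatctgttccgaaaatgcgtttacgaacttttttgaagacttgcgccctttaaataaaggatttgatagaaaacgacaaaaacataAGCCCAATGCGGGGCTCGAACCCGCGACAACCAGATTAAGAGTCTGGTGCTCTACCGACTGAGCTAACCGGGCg
clec-57, chrV:14468599-14468879, around the summit, with part of the snRNA gene F08H9.11: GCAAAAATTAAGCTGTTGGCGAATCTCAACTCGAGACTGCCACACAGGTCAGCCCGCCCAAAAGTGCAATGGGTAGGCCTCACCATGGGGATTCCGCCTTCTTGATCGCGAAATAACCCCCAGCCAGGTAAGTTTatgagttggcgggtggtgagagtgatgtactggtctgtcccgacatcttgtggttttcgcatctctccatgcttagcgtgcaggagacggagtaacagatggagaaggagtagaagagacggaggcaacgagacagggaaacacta
clec-150, chrIII:1002727-1002823, first coding exon at the summit, with CACGTG: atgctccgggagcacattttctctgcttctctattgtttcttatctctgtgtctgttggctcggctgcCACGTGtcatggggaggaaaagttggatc
clec-178, chrIV:5654171-5654321, intron at the summit, with AGGTCA as its reverse complement: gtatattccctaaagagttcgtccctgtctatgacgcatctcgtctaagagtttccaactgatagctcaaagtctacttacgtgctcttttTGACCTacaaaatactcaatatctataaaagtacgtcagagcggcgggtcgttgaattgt
clec-64, chrII:12897818-12897968, upstream of the start, with TGATAA as its reverse complement: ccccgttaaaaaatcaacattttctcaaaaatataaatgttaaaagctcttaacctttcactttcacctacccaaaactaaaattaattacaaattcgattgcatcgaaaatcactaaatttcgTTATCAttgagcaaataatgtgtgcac

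The strongest member peak was at clec-126 (WBGene00021117, chrII:3519494-3520712, plus strand). Its signal was 358 in the pooled list (rank 53), 202 in replicate 1 (rank 57) and 153 in replicate 2 (rank 62). It was the only member among the first 1000 pooled peaks and ranked alike in both replicates, whose summits lay 7 bp apart. The summit at position 3519183 was intergenic, 311 bp upstream of the clec-126 start. It lay between 2 tRNA genes, both on the minus strand. WBGene00023162 (3519086 to 3519157) was 26 bp from the summit, and WBGene00023161 (3519250 to 3519322) was 67 bp from it. The second tRNA gene has the same sequence as others in the nuclear genome, 25 genes in all, while the sequence of the first occurs in 1. Across the 716 other genes with an IDR summit, 154 or 21.5% had theirs within 100 bp of a tRNA, snoRNA or snRNA gene. Whether the peak belongs to clec-126 or to the tRNA genes was not tested.

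The peak at clec-150 (WBGene00019914, chrIII:1002707-1006298, plus strand) was placed alike by both replicates. Its signal was 113 in the pooled list (rank 1118), 53.7 in replicate 1 (rank 1749) and 49.4 in replicate 2 (rank 1197). The pooled summit lay 41 bp downstream of the start, in the first coding exon, and the replicate summits were 4 bp apart. No other gene's start had the summit in its window, and clec-150 was the only one of the 14 members on chromosome III with a pooled summit.

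The peak at clec-178 (WBGene00020585, chrIV:5653949-5655003, plus strand) lies inside another gene. Its signal was 111 in the pooled list (rank 1149) and 77.8 in replicate 2 (rank 442). In replicate 1 the strongest summit in the window had a signal of 30.1 (rank 5180) and lay 804 bp upstream. A replicate 1 peak of 53.0 (rank 1779) did overlap the pooled peak, but its summit lay 242 bp from the pooled one and outside the window. The 2 replicates thus differed in where they placed the peak. The pooled summit at 5654246 was 297 bp downstream of the clec-178 start, in an intron of clec-178 and also of skn-1 (WBGene00004804, chrIV:5651039-5660384, minus strand), which encodes a transcription factor of the oxidative stress response. The nearest skn-1 start, at 5653229, was 1017 bp from the pooled summit but 84 bp from the replicate 1 summit with a signal of 30.1. Only through that replicate 1 summit does clec-178 count as a member with a summit in both replicates. The strongest peak at skn-1 itself was a different one, with a signal of 113 (rank 1116).

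3 members came next below the lowest IDR signal of 98.9. clec-57 (WBGene00008594) had 76.1 in the pooled list, 57.2 in replicate 1 and 17.8 in replicate 2, or ranks 2237, 1548 and 9575. Its summit lay 492 bp upstream, within 100 bp of the snRNA gene F08H9.11, and 493 bp upstream of srz-97, which encodes a predicted chemoreceptor. clec-196 (WBGene00009156) had 56.8, 37.5 and 34.6, with its pooled summit 3 bp downstream of one of its 3 starts and in a coding exon. clec-89 (WBGene00015631) had 56.5, 38.6 and 10.7, with its summit 586 bp upstream and inside an intron of unc-89, a gene of muscle structure. Of these, clec-196 had the most even replicate signals, while clec-57 and clec-89 were lower in replicate 2, at ranks 9575 and 22452. The replicate summits at clec-196 were 217 bp apart, however, against 50 bp at clec-57 and 12 bp at clec-89.

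The next members by pooled signal were clec-221, clec-87 and clec-40, whose summits in the window all ranked higher in replicate 2. clec-221 had 51.9 in the pooled list, 34.1 in replicate 1 (rank 4019) and 42.4 in replicate 2 (rank 1645). A stronger replicate 2 peak of 84.8 (rank 357) overlapped its pooled peak but had its summit outside the window. clec-87 had 50.5, 18.6 (rank 13462) and 29.6 (rank 3398), and clec-40 had 50.4, 15.2 (rank 18411) and 23.1 (rank 5614). Stronger replicate 1 peaks with their summits further away also overlapped the pooled peaks of these genes, 21.9 (rank 10013) at clec-87 and 26.4 (rank 6872) at clec-40. These 3 had their pooled summits 298, 315 and 495 bp downstream of the start. clec-218 had 44.7, 20.2 and 24.6, and clec-264 had 43.7, 21.5 and 14.6. For clec-88 the values were 37.9, 29.5 and 26.7, but the replicate 2 value is that of another peak, 483 bp from the replicate 1 summit, and the replicate 2 peak that overlaps the pooled one had 11.7 (rank 19747). Its pooled summit was nearer to the start of ani-2, an anillin gene, at 66 bp, than to its own at 289 bp. clec-50 had 37.1, 23.6 and 11.8, and clec-64 had 35.4, 19.98 and 18.2. The neighbours clec-62 and clec-63 shared a single pooled peak of 33.6. The replicate values at both were 30.4 and 24.98, but from summits 537 bp apart.

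**Figure D2:**
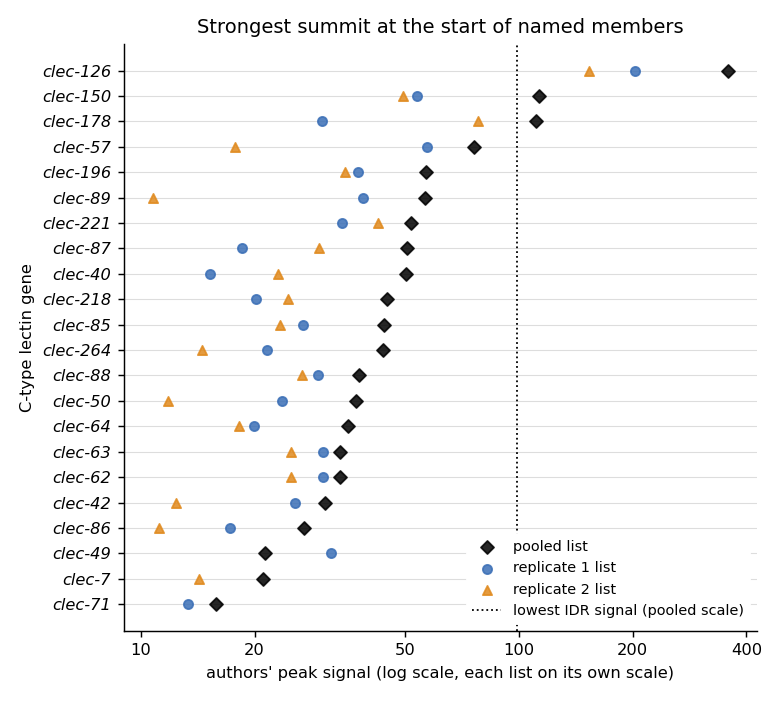
Signal of the strongest peak at the start of 22 named C-type lectin genes (x axis, log scale, each list on its own scale) in the pooled list and in each replicate list, with the lowest IDR signal of 98.9 as a dotted line. Among pooled points only those of clec-126, clec-150 and clec-178 lie to the right of the line, which does not apply to the scales of the replicate lists, and replicate points are missing where that list had no summit at the start.

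Over the 45 members with a summit in both replicate lists, the strongest replicate peaks shared at least 1 base in 32 (71.1%, against 73.6% of 6143 other genes). Their summits were a median of 161 bp apart, against 129 bp, and within 100 bp in 19 members (42.2% against 43.8%). The signals of the 2 replicates had a Spearman rho of 0.422 over the 45 members and of 0.635 over the other genes. This is a description: both lists cover the same windows, and neighbouring members can share a peak. Placement was therefore about as close as at other genes, while the order of signals was looser.

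**Figure D3:**
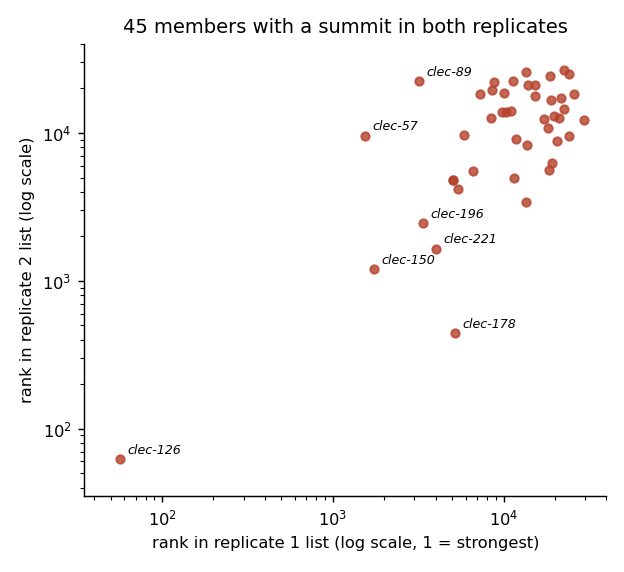
Rank of the strongest peak at each of 45 C-type lectin genes in the replicate 1 list (x axis) and the replicate 2 list (y axis), both on log scales with 1 the strongest. clec-126 stands alone at ranks 57 and 62, and most other members lie beyond rank 5000 in both lists.

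Members known from infection studies did not stand out from other protein-coding genes. Of the 13 named for that reason, none had an IDR summit, beside 3.63% of other genes, and 6 had a pooled summit. A summit in both replicates was found for 4 (beside 31.1% of other genes), and 5 had none in any list (beside 45.4%). clec-85, which is induced by Pseudomonas aeruginosa, had the highest pooled and replicate 2 values of the set, with 43.9 in the pooled list (rank 6087), 26.8 in replicate 1 and 23.3 in replicate 2, and its summit lay in a 5′ untranslated region 469 bp upstream of the nearest start. clec-42 had 30.6, 25.6 and 12.4, with the replicate summits 1352 bp apart. clec-86 had 27.1, 17.3 and 11.2. clec-49, which takes part in resistance to Serratia marcescens, had 21.4 in the pooled list and 31.8 in replicate 1 and no summit in replicate 2. clec-7 had 21.0 in the pooled list and 14.3 in replicate 2, and clec-71 had 15.8 in the pooled list and 13.3 in replicate 1. clec-67, another gene induced by infection, had 16.0 and 15.4 in the replicates and no pooled summit, and clec-4 had 12.9 in replicate 2 alone. clec-39, clec-41, clec-60, clec-61 and clec-70 had no summit at a start in any list. clec-60 and clec-61 respond to Staphylococcus aureus, and their nearest pooled summits were 14922 bp downstream and 10740 bp upstream of a start. At 6 pooled summits among 13, this set was near the 42.1% of other genes and above the 33.3% of all members.

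Lists of other antimicrobial effectors lay on both sides of the share of all genes. Of 136 genes for lysozymes, saposin-like proteins, antimicrobial peptides, neuropeptide-like antimicrobial peptides, galectins, thaumatin-like proteins and infection response genes, 5 had an IDR summit (3.68%), 56 a pooled summit (41.2%) and 48 a summit in both replicates (35.3%). Pooled summits were found for 9 of 11 neuropeptide-like genes (81.8%), 8 of 12 galectin genes (66.7%), 17 of 31 saposin-like genes (54.8%) and 7 of 16 lysozyme genes (43.75%), but for only 9 of 53 antimicrobial peptide genes (17.0%). The effectors with an IDR summit were the saposin-like genes spp-26 (signal 258), spp-13 (148) and spp-8 (131), the fungus-induced gene fip-1 (187) and the galectin gene lec-6 (140). As at clec-126, a tRNA gene lay within 100 bp of the summit at spp-26, spp-13 and fip-1. Among 18 genes of immune signalling, 14 had a pooled summit (77.8%), and zip-2 (228) and skn-1 (113) had an IDR summit. Of these 18 genes 33.3% have 1 annotated start, against 73.5% of other genes, so more of them have several windows. zip-2 encodes a transcription factor of the response to infection. Of 156 cuticle collagen genes, 4 had an IDR summit and 59 a pooled one (37.8%), and of 269 nuclear hormone receptor genes, 10 and 121 (44.98%). Of 74 cytochrome P450 genes, 2 had an IDR summit and 37 a pooled one (50%). Of these groups only the antimicrobial peptide genes had a lower pooled share than the C-type lectin genes. In both replicates the collagen genes, at 21.8%, and the antimicrobial peptide genes, at 15.1%, were also low beside the 31.1% of other genes. These differences were not tested.

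The members have fewer annotated starts than other genes, and so fewer windows in which a summit could lie. There was 1 start in 217 members (90.4%) against 73.5% of other genes. Among genes with 1 start, 70 members had a pooled summit (32.3%) against 36.1% of others. In the same genes 36 members had one in both replicates (16.6%) against 25.2%, and 3 had an IDR summit beside 2.76% of others. Among genes with 2 or more starts, 10 of 23 members had a pooled summit (43.5%) against 58.6%. Shares among members thus stayed lower within both classes, and the pooled gap was smaller for genes with 1 start.

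Many members lie on chromosome V, where summits were least frequent among other genes. It holds 86 members, 35.8% of them against 24.9% of other genes, and X holds 3. On chromosome V 23 members had a pooled summit (26.7% against 32.4% of other genes there), and on chromosome IV 16 of 53 (30.2% against 41.7%). The shares were 16 of 36 on chromosome I (44.4% against 52.4%) and 1 of 14 on III (7.14% against 55.1%). Chromosome II went the other way, with 23 of 48 (47.9% against 43.5%), and on X 1 of 3 members had a summit (33.3% against 34.8%). In both replicate lists, however, chromosome II members had 15 of 48, or 31.25%, beside 31.1% of other genes there. On chromosome I the share in both replicates was 11.1% against 39.8%, a wider gap than in the pooled list, and on X it was 33.3% against 25.5%. It was 7.14% against 41.2% on III, which has 14 members, 18.9% against 31.4% on IV and 16.3% against 23.7% on V.

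**Figure D4:**
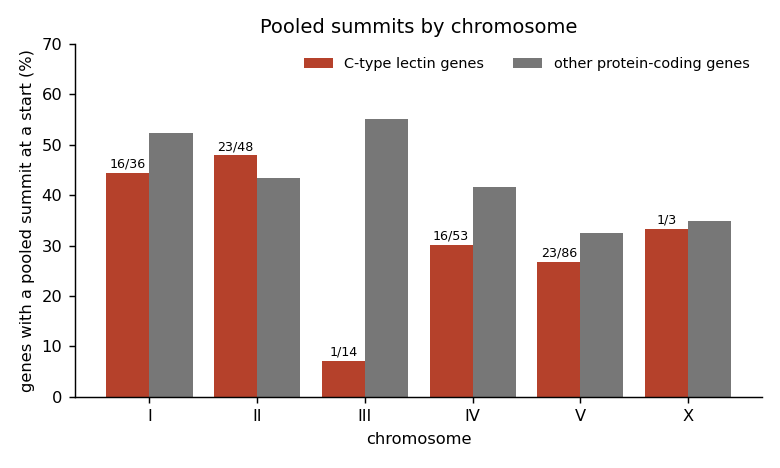
Share of genes with a pooled summit at a start (y axis, percent) on each chromosome (x axis), for C-type lectin genes and for other protein-coding genes, with members counted above their bars. The members' bar is the lower one on 5 chromosomes and the higher one on II, at 47.9% against 43.5%.

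Many members lie in tandem. With a gap of at most 10000 bp between neighbours, the 240 genes form 132 runs, of which 85 are single genes. The longest run, 13 members from clec-40 to clec-33 at chrV:16839121-16869840, had 1 pooled summit, at clec-40, and 2 members with a summit in both replicates. The run from clec-67 to clec-79 at chrIV:3922165-3975721 had 3 among 11 members. The run from clec-143 to clec-61 at chrII:10468202-10490537, which holds the infection genes clec-60 and clec-61, had none among 5. The run from clec-62 to clec-66 at chrII:12893062-12906644 had 4 among 5, all 4 in both replicates, but clec-62 and clec-63 were counted through the same peak in each list. These 4 runs, picked after their values were seen, thus ranged from no member to 4 of 5 with a pooled summit. None of the 4 runs had an IDR summit, but few genes have one, 3.63% of other genes. The 155 members with another member within 10000 bp had 48 pooled summits (31.0%) and the 85 others had 32 (37.6%), while summits in both replicates were as frequent, 18.7% and 18.8%. Besides clec-62 and clec-63, a peak was shared by clec-128 and clec-129 (28.7) and by clec-83 and clec-84 (29.1).

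Some members have near-identical copies, where reads fit more than 1 place, and the sources used here do not say how such reads were treated. The share of a gene's start windows made of 31-base words that occur elsewhere in the nuclear genome was taken as a measure. It was over 10% and up to 50% for 39 members, of which 19 had a pooled summit, and here members had the higher share, 48.7% against 36.1% of other such genes. In both replicates that class had 9 members, 23.1% against 23.7%. It was 90.1 to 100% for both copies of clec-15, clec-209 and clec-249, and none of these 6 genes had a summit in any list. The part of repeated sequence in this was not tested. Of the 7 members above 50%, clec-225 alone had a pooled summit, which is 14.3% against 7.09% of other such genes. Among the 194 members at or below 10%, 60 had a pooled summit (30.9% against 44.1% of other such genes), 35 had one in both replicates (18.0% against 33.1%) and 3 an IDR summit (1.55% against 3.85%). Members had the lower share in all 3 counts. For clec-49, clec-50, clec-71, clec-42 and clec-70 the repeated share was 20.9, 24.3, 18.2, 12.7 and 31.4%, and their values are less certain. The same holds for clec-57, which was just over the 10% limit at 10.2%.

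The summits did not gather just upstream of the starts of members. The median position of the strongest pooled summit was 170 bp upstream both for members (quartiles 587.75 bp upstream and 236.5 bp downstream) and for other genes (490 bp upstream and 70 bp downstream). In the 100 bp before the start there were 3 members, 3.75% against 10.5% of other genes. From 200 to 300 bp downstream there were 10 (12.5% against 5.56%), and from 400 to 500 bp downstream there were 8 (10% against 4.64%). Upstream summits made up 47 of 80 (58.75%) against 67.9%, and 83.1% of the other genes with an IDR summit. Medians in the replicates were 215 bp upstream in replicate 1 and 62 bp upstream in replicate 2. The members' summits were therefore spread over the window, where those of other genes were concentrated near the start. Positions were taken from the nearest of a gene's starts, and 90.4% of members have 1 start against 73.5% of other genes. They were not compared within genes of 1 start.

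**Figure D5:**
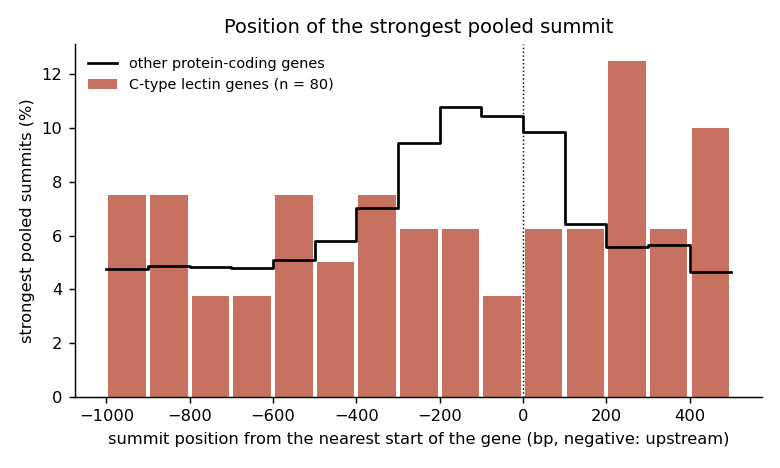
Position of the strongest pooled summit from the nearest start of its gene (x axis, bp, negative upstream) in bins of 100 bp, as a percentage of 80 C-type lectin genes (bars) and of other protein-coding genes with a summit (line). The line is highest from 200 bp upstream to the start, and the tallest bar, at 12.5%, lies 200 to 300 bp downstream.

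By annotation, 32 of the 80 summits were intergenic (40% against 44.7% of other genes), 29 in a coding exon (36.25% against 26.1%), 18 in an intron (22.5% against 19.3%) and 1 in a 5′ untranslated region (1.25% against 6.13%). The nearest start was the member's own for 70 of them, another member's for 3 and that of a gene outside the family for 7. A small RNA gene lay within 100 bp of 3 summits (3.75% against 2.52%). These include clec-99, whose summit was 20 bp from a tRNA gene, besides clec-126 and clec-57. The window edges split close cases. clec-104 and clec-261 were counted at 1000 and 997 bp upstream, and clec-2 and clec-183 were not at 1032 and 1108 bp. Downstream, clec-40 and clec-12 were counted at 495 and 499 bp, and clec-100 and clec-148 were not at 524 and 537 bp. For the 160 members without a pooled summit in the window, the nearest one was a median of 4939.5 bp away, and over 5000 bp for 78 of them. No such distance is given here for other genes, so these values are not a comparison.

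Short motifs were looked up on both strands within 50 bp on either side of each distinct strongest pooled summit, 77 at members and 7166 at other genes only. TGATAA, a site of GATA factors such as the intestinal regulator ELT-2, was in 11 member windows (14.3% against 11.1%). AGGTCA, a core site of nuclear receptors, was in 4 (5.19% against 2.60%) and GTAAACA, a site of FOXO factors, in 3 (3.90% against 1.28%). CACGTG was in 1 (1.30% against 3.18%) and GAGAGAG in 2 (2.60% against 4.34%). No motif was common at the summits, and none of the 5 contains another. The median GC content there was 42.6% for members and 41.6% for others. Of the motifs in capitals in the printed sequences, AGGTCA at clec-178 lies within this distance of the summit, while CACGTG at clec-150 and TGATAA at clec-64 run past it and are not in these counts.

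The promoters of members, taken as 250 bp before to 50 bp after the most 5′ start, were rich in TGATAA whether or not they had a summit. It was found in 129 of 240 (53.75%) against 29.9% of the promoters of other genes, with a median GC content of 34% against 34.3%. The share was 44.4 to 66.7% on each of the 6 chromosomes, against 27.9 to 31.6% of other genes. Among the 80 members with a pooled summit 45 had the motif (56.25%), and among the 160 without 84 had it (52.5%). Lysozyme genes had it in 62.5% of promoters and saposin-like genes in 58.1%, and cytochrome P450 genes in 43.2%. It was in 6 of 8 promoters of infection response genes (75%), 6 of 12 of galectin genes (50%) and 2 of 5 of thaumatin-like genes (40%). Immune signalling genes had it in 38.9% and neuropeptide-like genes in 36.4%. Of the immune lists only antimicrobial peptide genes, at 26.4%, lay below the share of other genes. Outside them, the share was 29.7% for nuclear hormone receptor genes and 29.5% for collagen genes. For the members CACGTG was found in 2.92% of promoters against 5.86%, GAGAGAG in 2.5% against 6.84%, AGGTCA in 7.5% against 8.24% and GTAAACA in 3.75% against 4.78%. A match is a string of letters and not a measured binding site.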

How the data were processed

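Data came from 2 biological replicates of 1 group. The deposited files are narrowPeak lists, and the peak signal is the authors' value from the signal column, on a scale that differs between lists. According to the records deposited beside the lists, each was made with a control, the pooled list from both replicates, and the IDR list by thresholding on reproducibility. The sources used here do not give the aligner, the caller, their versions, the IDR threshold or the treatment of multiply mapping reads. Depth in reads is unknown.

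Summits were placed at starts with Python 3.11.15, pandas 2.3.3 and numpy 2.4.6, and exact 95% intervals came from scipy 1.17.1. Figures were drawn with matplotlib 3.10.9. The placing step was tested on simulated data with known answers. Gene models were from Ensembl release 115 and sequence and product names from RefSeq, both on WBcel235, and no peak on ce11 ended beyond a chromosome. Coordinates are 1-based. Lists on ce10 were not used, as coordinates were not converted.

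A gene was named if it had an IDR summit, was among the 15 members with the highest pooled signal or the 8 highest in a replicate, was one of 3 just below the IDR limit, or was in a set of 13 known from infection studies. Of the other immune lists, genes with an IDR summit were named. clec-225, clec-99 and the members at window edges, in runs or in repeated sequence were chosen after their values were seen. The members, lists and motifs were chosen with earlier results of these data known. Peaks shared by several genes count for each of them. With 1 group no test was made, and a planned look at protein triplets was not run.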

Additional observations from a re-analysis of the deposited data

How the results depend on the processing

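In 28 of 28 alternative counts that gave a share for both, C-type lectin genes had a lower share with a summit than other genes. A window of 500 bp upstream to the start left 1 member with an IDR summit (0.417% against 2.10% of other genes). It left 30 in the pooled list (12.5% against 24.3%) and 14 in both replicates (5.83% against 14.6%). A window of 2000 bp upstream to 1000 bp downstream gave 72 in both replicates (30% against 42.9%) and a median position of -280 bp. The stronger 50% of the IDR list held 1 member (0.417% against 1.70%). The 10000 strongest peaks of each list, a choice that leaves out weak peaks, gave 18 members in the pooled list (7.5% against 21.6%). In both replicates they gave 11 (4.58% against 14.2%). The median signal was then 47.6. Requiring replicate peaks to share 50% of each other's length left 29 of the 45 members in both replicates (64.4% against 59.8% of such other genes). With each peak given only to its nearest start, 74 members had a pooled summit (30.8% against 38.1%), and the median position was -24 bp. The strongest member peaks that this setting gave to another gene were all upstream of the member, from 289 bp at clec-88 to 1000 bp at clec-104. How far this moved the median was not tested.

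From the strongest peaks of a single replicate, in place of a list from both, the IDR count was 1 to 3, with clec-126 alone in replicate 1. The shares were 0.417% against 3.76% of other genes in replicate 1 and 1.25% against 3.50% in replicate 2. The pooled count was 73 to 77, the median signal 14.2 to 17.3, on the scale of those lists, and the median position -215 to -62 bp. Restriction to genes with up to 10% repeated start windows, added after the data were seen, gave 3, 60 and 35 members. No paired analysis was possible because there was 1 group. The numbers of reads are unknown, so a missing summit says only that no listed peak lay there.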
